A study of Mus musculus with 9 samples.

Results

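The genes described here are the inhibitors of cyclin-dependent kinases (CDKs) and the core of the p53 pathway, measured as probe intensities in colon RNA of female BALB/c mice. The 10 genes were chosen by symbol: Cdkn1a, Cdkn1b, Cdkn1c, Cdkn2a, Cdkn2b, Cdkn2c, Cdkn2d, Trp53, Mdm2 and Ccng1. Of these, 8 had a probe under their symbol on the array, with 9 probes in all out of 26423, since Cdkn2a had 2. Trp53 and Cdkn2d had no probe under their symbol and are not analysed here. The 9 arrays form 3 groups of 3. Mock mice were untreated. Sham mice were given the carcinogen azoxymethane (AOM) once, at 12.5 mg/kg into the peritoneum on day 1, and dextran sodium sulfate (DSS), a polymer that injures the gut lining, at 2.5% in the drinking water for 5 days from day 8 and then plain water for 16 days, with 3 more DSS cycles. Sham is therefore the control for vanillin and is itself treated. Vanillin mice went through the same AOM and DSS course and also received vanillin by mouth, at 100 mg/kg over 91 days. The labels give no age. Nothing in them ties each array to its own mouse, so p-values reflect the spread among these arrays alone, and that spread may be technical.

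CDKs drive cells through the division cycle when they are bound by cyclins. The INK4 inhibitors p16 (Cdkn2a), p15 (Cdkn2b), p18 (Cdkn2c) and p19 (Cdkn2d) bind the CDKs that act with D-type cyclins, while the Cip/Kip inhibitors p21 (Cdkn1a), p27 (Cdkn1b) and p57 (Cdkn1c) bind a wider range of cyclin and CDK complexes. These CDKs phosphorylate the RB protein and so free E2F transcription factors. Cdkn2a also encodes, from a separate first exon in another reading frame, the protein ARF, which binds the ubiquitin ligase MDM2 and so protects p53 from breakdown. p53 in turn activates Cdkn1a, Mdm2 and Ccng1 (cyclin G1), so that MDM2 closes a feedback loop. In the colon, p21 and p27 are known from cells that leave the crypt's dividing zone, and loss of p53 is a known step of colorectal cancer.

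The sequences shown first are the 250 bases before 4 start sites. Both starts of Cdkn2a are shown because its changes are the largest below, that of the neighbouring gene Cdkn2b for comparison, and the upstream start of Cdkn1a because it is the classical p53 target. They are the reference sequence of RefSeq (GRCm38.p6, from C57BL/6J mice and not from the BALB/c mice of the study), written 5′ to 3′ on the strand of the gene. RefSeq entries were found for 9 of the 10 genes, with 12 start sites, and Cdkn1c had none in the table used. Capitals mark letters that match 1 of 2 motifs, searched on both strands: the p53 core CATGNNNNNNCATG, and the E2F forms TTTCCCGC, TTTCGCGC, TTTGCCGC and TTTGGCGC.
Cdkn2a, upstream start, chr4:89294620-89294869 (- strand): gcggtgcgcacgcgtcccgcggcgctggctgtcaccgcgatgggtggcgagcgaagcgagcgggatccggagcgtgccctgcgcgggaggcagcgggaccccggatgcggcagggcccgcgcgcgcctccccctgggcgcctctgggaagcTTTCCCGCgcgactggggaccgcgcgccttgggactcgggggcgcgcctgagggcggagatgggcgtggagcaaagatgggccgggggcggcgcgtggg
Cdkn2a, downstream start, chr4:89282193-89282442 (- strand): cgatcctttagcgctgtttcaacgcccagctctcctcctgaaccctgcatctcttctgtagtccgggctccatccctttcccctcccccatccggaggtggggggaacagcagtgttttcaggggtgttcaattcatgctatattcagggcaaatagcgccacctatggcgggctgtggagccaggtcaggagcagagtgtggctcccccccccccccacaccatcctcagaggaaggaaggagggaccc
Cdkn2b, chr4:89311033-89311282 (- strand): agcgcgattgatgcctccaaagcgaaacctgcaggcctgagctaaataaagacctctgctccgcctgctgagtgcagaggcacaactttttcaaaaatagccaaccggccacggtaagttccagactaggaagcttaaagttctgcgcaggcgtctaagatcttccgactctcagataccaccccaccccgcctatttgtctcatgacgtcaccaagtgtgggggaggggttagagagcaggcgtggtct
Cdkn1a, upstream start, chr17:29090729-29090978 (+ strand): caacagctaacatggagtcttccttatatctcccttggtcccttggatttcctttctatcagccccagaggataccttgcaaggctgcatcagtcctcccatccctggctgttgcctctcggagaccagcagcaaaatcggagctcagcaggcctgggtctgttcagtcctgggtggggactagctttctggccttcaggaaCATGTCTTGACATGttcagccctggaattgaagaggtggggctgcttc
The upstream start of Cdkn2a held 1 E2F form, TTTCCCGC, from base -99 to base -92 before the start, and 78.4% of its bases were G or C. The downstream start (60.0% G or C) and the Cdkn2b start (53.6% G or C) held neither motif. The upstream start of Cdkn1a held the p53 core, CATGTCTTGACATG, from base -48 to base -35. The downstream start of Cdkn1a, not shown, held neither motif, and nor did the starts of the p53 targets Mdm2 and Ccng1. Among 32851 stretches of the same length before RefSeq start sites, 0.49% held the p53 core and 1.86% an E2F form. A match of letters is a description of the sequence only.

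Depth of coverage has no meaning for an array, and the number of arrays limits the precision. All 26423 probes had a value on every array, array medians lay between 319.6 and 320.1, and arrays of the same group correlated at 0.995 to 0.998 over all probes. Colon epithelium markers varied in brightness. Epcam had group means of 63711, 60542 and 64452 in Mock, Sham and Vanillin, close to the highest intensity on any array (65510), and Krt19 had 34506, 37962 and 37427. The colon transcription factor gene Cdx2 had 473, 4265 and 2783, the keratin gene Krt18 only 81.3, 52.6 and 49.5, and Krt8 was at or near 0 or below it in all groups. The groups also differed in markers of tissue that is not colon mucosa. The summed intensity of 15 squamous epithelium markers was 558645 to 562022 in Mock, 29917 to 30923 in Sham and 326737 to 380932 in Vanillin, and 5 of the 15 had a Sham mean under 50. That of 8 skeletal muscle markers was 115907 to 123828, 2985 to 3092 and 42660 to 48552. In the opposite order of groups, 13 markers of dividing cells summed to 18170 to 18315 in Mock, 45584 to 47539 in Sham and 34372 to 35166 in Vanillin, with 13 of 13 higher in Sham than in Mock and 11 of 13 lower in Vanillin than in Sham. In bulk tissue, fewer cells of a type and less RNA per cell cannot be told apart, and the part of these shifts in the results below was not tested unless a value is given.

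**Figure D1:**
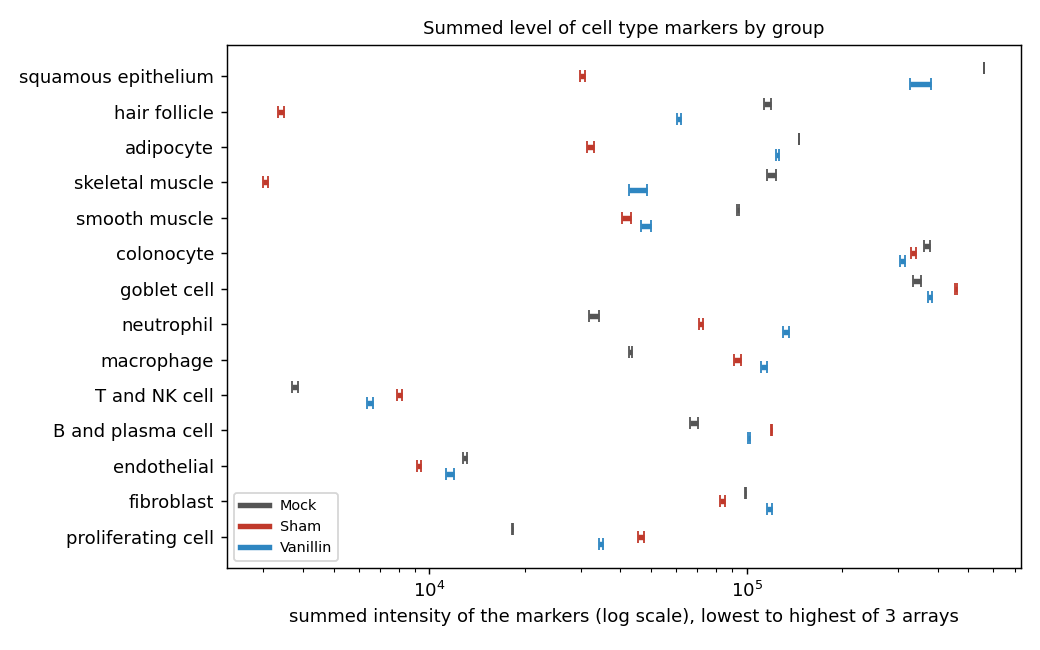
Summed probe intensity of the markers of 14 cell types (x axis, log scale) in Mock, Sham and Vanillin; each bar runs from the lowest to the highest of 3 arrays. Squamous epithelium, hair follicle and skeletal muscle markers are lowest in Sham, whereas markers of dividing cells run from 18170 in Mock to 47539 in Sham.

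Cdkn2a, which encodes p16 and ARF, changed most among the 9 probes in the comparisons of Sham with Mock and of Vanillin with Sham. Its brighter probe had intensities of 540, 537 and 552 in Mock, 4664, 4280 and 4891 in Sham, and 1106, 1038 and 923 in Vanillin. All Sham arrays lay above all Vanillin arrays, and those above all Mock arrays. Its dimmer probe gave the same order, with 41.3, 46.0 and 41.6 in Mock, 1187, 1215 and 1070 in Sham, and 206, 211 and 213 in Vanillin. The sources used here do not say which of the gene's transcripts either probe reads, so p16 and ARF cannot be told apart.

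Changes are given on the log2(intensity + 16) scale with their standard error (SE), from limma's moderated test with Benjamini-Hochberg adjustment over 26423 probes, with 0.05 as the limit for calling a change. The brighter Cdkn2a probe rose by 3.05 (SE 0.075, 8.26-fold, adjusted p = 1.2e-09) in Sham against Mock, and the dimmer one by 4.31 (SE 0.061, 19.9-fold, adjusted p = 2.9e-11). The size on the dimmer probe depended on the constant added before the logarithm: with 1 it was 4.72 and with 64 it was 3.51. The rise was larger on the dimmer than on the brighter probe by 1.27 with 16 added, by 1.64 with 1 and by 0.57 with 64. An exact permutation test over the 3 and 3 arrays (two-sided) gave p = 0.10 each time, the smallest that 3 against 3 allows.

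With vanillin, Cdkn2a was lower than in Sham and still higher than in Mock. The brighter probe fell by 2.16 (SE 0.075, adjusted p = 3.6e-08) and the dimmer one by 2.38 (SE 0.061, adjusted p = 3.7e-09). Here the probes differed by -0.22 with 16 added (exact permutation p = 0.20), by -0.28 with 1 (exact permutation p = 0.20) and by -0.05 with 64 (exact permutation p = 0.80). Against Mock, Vanillin arrays stood 0.89 (SE 0.075, adjusted p = 1.1e-05) and 1.94 (SE 0.061, adjusted p = 1.9e-08) higher. With 1 and 64 added, the second of these was 2.26 and 1.36. The summed markers of dividing cells had the same order of groups, as did those of 9 B and plasma cell markers (66222 to 70539 in Mock, 119194 to 120050 in Sham and 100703 to 102381 in Vanillin), of which 7 were higher in Sham than in Mock and 5 lower in Vanillin than in Sham. The sum of 10 T and NK cell markers had it too (3704 to 3869, 7908 to 8217 and 6379 to 6627). That sum was carried by Cd3e (means 1494, 3251 and 2334) and Gzmb (130, 2608 and 1487), while Cd3g (570, 326 and 602) and Nkg7 (299, 168 and 286) were lowest in Sham. In the B and plasma cell list, the brightest genes were Xbp1 (59343, 65471 and 65136), close to the highest intensity on any array, and Jchain (4127, 36901 and 25385). The sum of 10 goblet cell markers had the same order (335242 to 353555, 453037 to 460658 and 374468 to 383029). Of these 10, 6 were higher and 1 lower in Sham than in Mock, and 6 were lower in Vanillin than in Sham. The part of any of these cells in the Cdkn2a values was not tested.

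Cdkn2b, the gene next to Cdkn2a, which encodes the related inhibitor p15, had another order of groups. Its intensities were 6535, 6469 and 6877 in Mock and 6280, 5920 and 6883 in Sham, so the groups overlapped. The change was -0.06 (SE 0.066, adjusted p = 0.45, 95% interval -0.21 to 0.09). Vanillin arrays, at 5001, 4598 and 4684, lay below every array of the other groups. Cdkn2b fell by 0.41 against Sham (SE 0.066, adjusted p = 0.00083) and by 0.48 against Mock (SE 0.066, adjusted p = 0.00028). In Sham against Mock the brighter Cdkn2a probe rose by 3.11 more than Cdkn2b, and in Vanillin against Sham the difference was -1.74. Each exact permutation test gave p = 0.10, the smallest possible.

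Cdkn2c, which encodes p18, moved opposite to Cdkn2a. Its intensities were 4932, 5501 and 5578 in Mock, 2358, 2379 and 2389 in Sham, and 4194, 4340 and 4247 in Vanillin. No group overlapped another, and Sham was lowest. Cdkn2c fell by 1.16 in Sham against Mock (SE 0.055, 2.24-fold, adjusted p = 1.3e-07), rose by 0.84 in Vanillin against Sham (SE 0.055, 1.79-fold, adjusted p = 3.6e-06) and stayed lower than in Mock (-0.32, SE 0.055, adjusted p = 0.0011). This is the order of the squamous epithelium, hair follicle (113369 to 119300, 3338 to 3490 and 60274 to 62119) and skeletal muscle sums given above. Adipocyte sums had it too (145906 to 146803, 31511 to 32928 and 123805 to 126857). So did smooth muscle (93504 to 94877, 40406 to 43125 and 46551 to 49840) and endothelial sums (12790 to 13152, 9138 to 9427 and 11249 to 11988). Of 12 adipocyte markers, 10 were lower and 2 higher in Sham than in Mock. Of 10 endothelial markers, 5 were lower, 2 higher and 3 not called there (median -0.13). The part of those tissues in the Cdkn2c values was not tested.

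**Figure D2:**
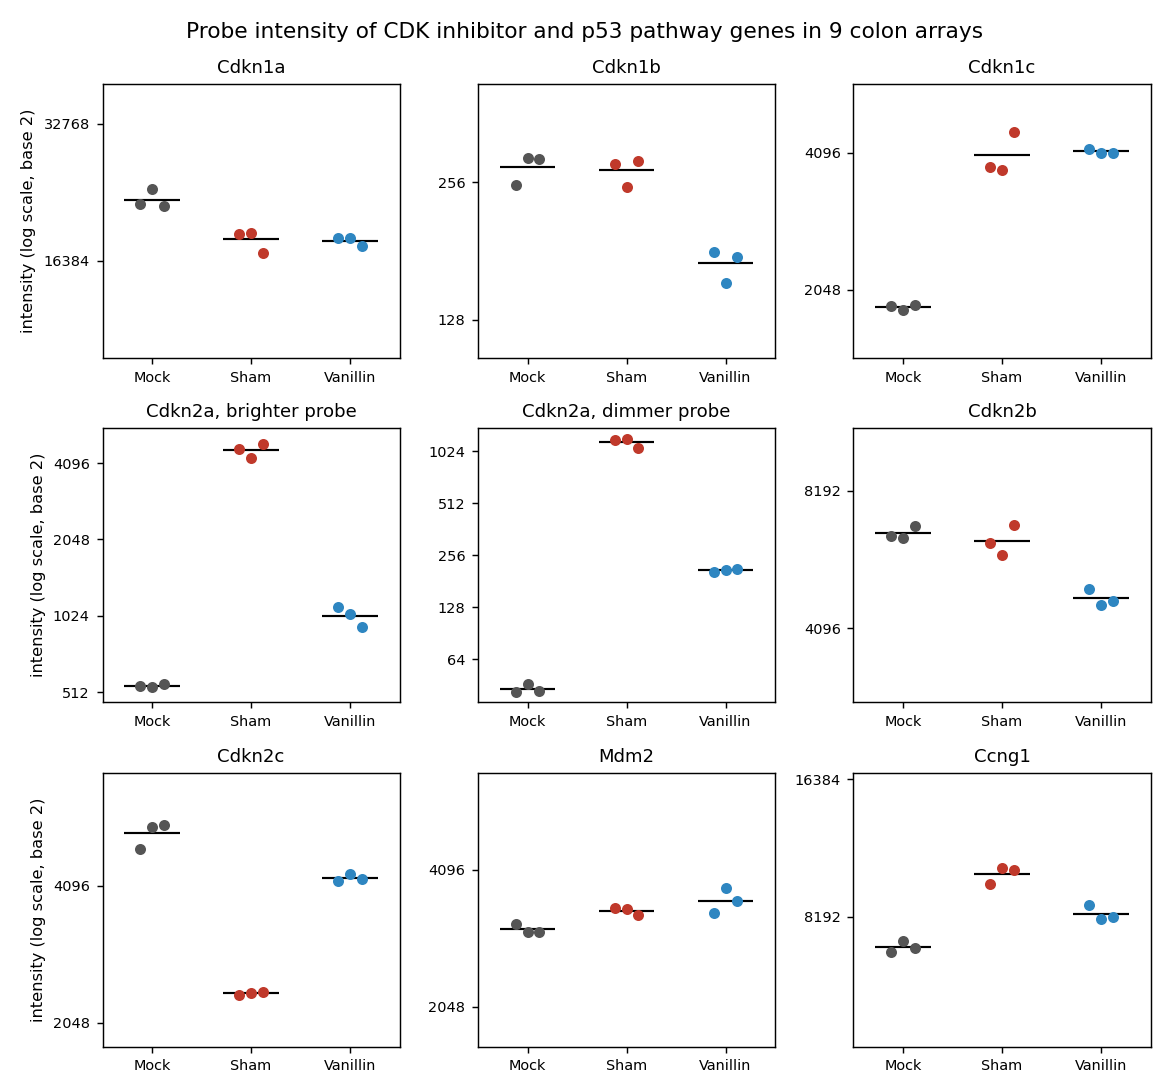
Intensity (log scale, base 2) of each of the 9 probes in the 3 Mock, 3 Sham and 3 Vanillin arrays; each point is 1 array, the line is the group mean, and each panel has its own range. Both Cdkn2a probes are highest in Sham (means 4612 and 1157), Cdkn2c is lowest in Sham (mean 2375), and Cdkn1b and Cdkn2b are lowest in Vanillin (means 170 and 4761).

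The Cip/Kip genes each had another pattern. Cdkn1a, which encodes p21 and is the best known p53 target (its upstream start holds the p53 core shown above), had intensities of 21780, 23562 and 21601 in Mock. It had 18772, 18879 and 17051 in Sham and 18345, 18384 and 17622 in Vanillin. Every Mock array was above every other array, while Sham and Vanillin overlapped. Cdkn1a was thus lower in both groups given AOM and DSS, with changes of -0.29 in Sham (SE 0.059, 1.22-fold, adjusted p = 0.0022) and -0.30 in Vanillin (SE 0.059, adjusted p = 0.0024). Vanillin and Sham differed by -0.01 (SE 0.059, adjusted p = 0.93, 95% interval -0.14 to 0.13). The summed intensity of 17 colonocyte markers was also highest in Mock, at 363569 to 377880, against 329567 to 342291 in Sham and 304725 to 315864 in Vanillin. Its members went both ways in Sham against Mock, 6 higher and 4 lower (median 0.05): Car4 (means 54509 and 9127) and Slc26a3 (19645 and 2478) were lower, and Cdh17 (21634 and 48758) and Cdx2 (473 and 4265) were higher. Squamous epithelium, hair follicle, adipocyte, skeletal muscle, smooth muscle and endothelial sums were highest in Mock as well, although single endothelial markers went both ways. Smooth muscle sums were 93504 to 94877 in Mock, 40406 to 43125 in Sham and 46551 to 49840 in Vanillin. All 6 smooth muscle markers were lower in Sham and in Vanillin than in Mock. The part of any of these cell types in the Cdkn1a values was not tested.

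Cdkn1b, which encodes p27, was lower in Vanillin than in Mock and Sham. Its intensities were 253, 289 and 288 in Mock, 281, 250 and 286 in Sham, and 180, 154 and 176 in Vanillin. Mock and Sham overlapped, and all Vanillin arrays were lower than both. Cdkn1b fell by 0.63 in Vanillin against Sham (SE 0.08, 1.55-fold, adjusted p = 0.00024) and by 0.65 against Mock (SE 0.08, adjusted p = 0.00014). Sham against Mock gave -0.02 (SE 0.08, adjusted p = 0.83, 95% interval -0.20 to 0.16).

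Cdkn1c, the imprinted gene of p57, was higher in both groups given AOM and DSS. Its intensities were 1887, 1851 and 1894 in Mock, 3817, 3755 and 4553 in Sham, and 4182, 4091 and 4092 in Vanillin. Mock was below both other groups, which overlapped. Cdkn1c rose by 1.09 in Sham (SE 0.072, 2.13-fold, adjusted p = 1.3e-06) and by 1.13 in Vanillin (SE 0.072, 2.19-fold, adjusted p = 1.8e-06), each against Mock, and these comparisons share the Mock arrays. Vanillin against Sham gave 0.03 (SE 0.072, adjusted p = 0.74, 95% interval -0.13 to 0.20). Sums of 13 neutrophil markers were likewise lowest in Mock (31807 to 34188), with 70685 to 72815 in Sham and 130354 to 135830 in Vanillin. Of the 13, 10 were higher and 3 lower in Sham than in Mock. Macrophage, T and NK cell, B and plasma cell, goblet cell and dividing cell sums were lowest in Mock as well. Those of 12 macrophage markers were 42533 to 43539 in Mock, 91127 to 96334 in Sham and 111204 to 116156 in Vanillin. Of these 12, 6 were higher and 2 lower in Sham than in Mock. The part of any of these cells in the Cdkn1c values was not tested.

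Ccng1, which encodes cyclin G1 and is induced by p53, had intensities of 6857, 7252 and 6991 in Mock, 9673, 10484 and 10342 in Sham, and 8687, 8090 and 8153 in Vanillin. The 3 groups did not overlap. Ccng1 rose by 0.53 in Sham against Mock (SE 0.053, 1.44-fold, adjusted p = 2.3e-05), fell by 0.29 in Vanillin against Sham (SE 0.053, adjusted p = 0.002) and was 0.24 higher in Vanillin than in Mock (SE 0.053, adjusted p = 0.0048). Its order of groups was that of Cdkn2a, with smaller changes. It was also that of the dividing cell, B and plasma cell, T and NK cell and goblet cell sums given above. The part of any of these cells in the Ccng1 values was not tested.

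Mdm2, the p53 ligase and itself a p53 target, had the smallest change of the 9 probes in Vanillin against Mock and was not called in the other comparisons. Its intensities were 3113, 2994 and 2992 in Mock, 3378, 3356 and 3254 in Sham, and 3286, 3734 and 3485 in Vanillin. Mock lay below both other groups, and Sham and Vanillin overlapped. The change of 0.13 in Sham against Mock was not called (SE 0.056, adjusted p = 0.065), and it was called under 6 of 17 alternative settings (adjusted p = 0.024 to 0.16). In Vanillin against Mock, Mdm2 rose by 0.20 (SE 0.056, adjusted p = 0.013). That call was lost without Vanillin replicate 2 (0.16, adjusted p = 0.052, against 0.00027 to 0.052 over 17 settings). Vanillin against Sham gave 0.07 (SE 0.056, adjusted p = 0.33).

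**Figure D3:**
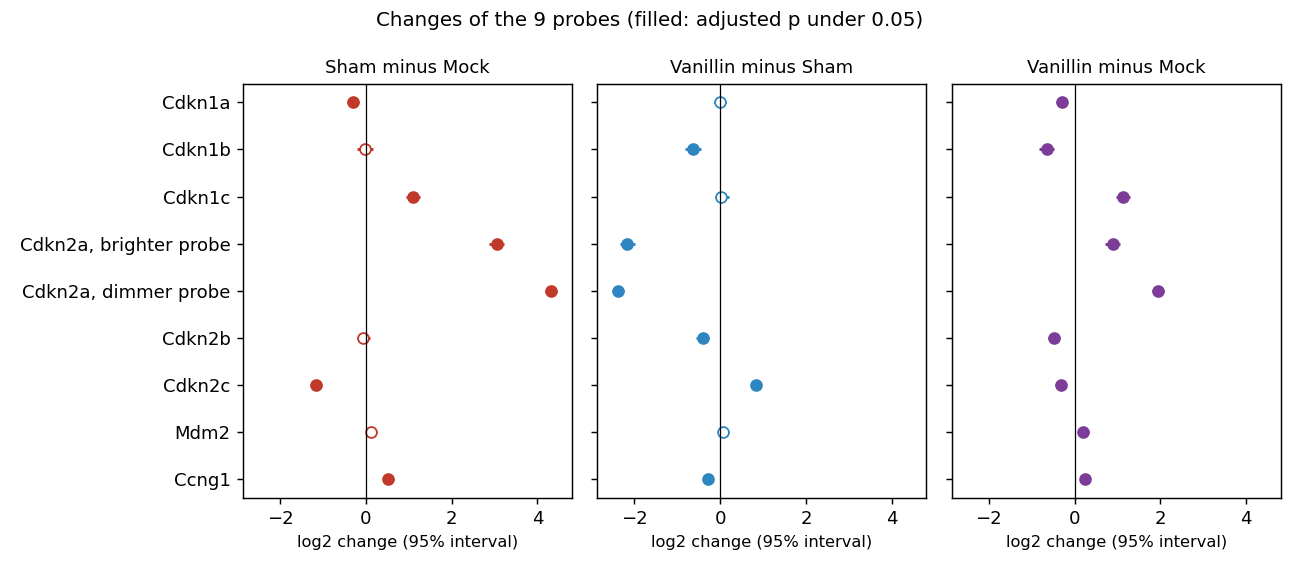
Change of each of the 9 probes on the log2(intensity + 16) scale (x axis) in the 3 comparisons; points are the fitted changes, bars the 95% intervals (visible where wider than the point), and filled points have an adjusted p under 0.05. Both Cdkn2a probes lie at 3.05 and 4.31 for Sham against Mock and at -2.16 and -2.38 for Vanillin against Sham, and Cdkn2c lies on the other side of 0 in each.

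Counted together, 6 of the 9 probes were called in Sham against Mock (66.7%), 4 higher and 2 lower, where 59.7% of all 26423 probes were called (36.5% higher and 23.2% lower). In Vanillin against Sham, 6 of 9 were called (66.7%), 1 higher and 5 lower, beside 47.9% of all probes (15.7% higher and 32.2% lower). In Vanillin against Mock all 9 were called, 5 higher and 4 lower, beside 50.7% of all probes (24.5% higher and 26.2% lower). The difference between these shares and those of all probes was not tested. The members' median changes were 0.13, -0.29 and 0.20 in the 3 comparisons, against 0.10, -0.09 and 0.00 over all probes. The sizes of the Cdkn2a changes were at percentiles 97.7 and 98.8 of all probes in Sham against Mock and at percentiles 98.3 and 98.5 in Vanillin against Sham. In Sham against Mock, Cdkn1a was at percentile 47.9 and Ccng1 at percentile 68.6. Arrays of the compared groups did not overlap for 7, 6 and 9 of the 9 probes, and for 67.1%, 56.3% and 60.4% of all probes. The first and second comparisons share the Sham arrays with opposite sign.

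Genes that p53 activates did not move one way. Of 29 measured p53 target genes other than the members, 15 rose (51.7%), 7 fell and 7 were not called in Sham against Mock (median 0.20), beside 36.5% and 23.2% of all probes. Among the 4 with the smallest p, Apaf1, the scaffold of the apoptosome, rose by 1.83 (SE 0.056, adjusted p = 5.3e-09). Sesn1, a stress-induced regulator of growth signals, changed by -1.91 (SE 0.048), the kinase gene Plk3 by -1.69 (SE 0.051) and Phlda3, an AKT repressor, by -1.41 (SE 0.044). In Vanillin against Sham, Apaf1 fell by 0.41, whereas Sesn1 rose by 0.95, Plk3 by 1.09 and Phlda3 by 0.21. In that comparison 7 of the 29 rose (24.1%) and 11 fell (37.9%; median -0.08), beside 15.7% and 32.2% of all probes. Vanillin against Mock had 7 that rose (24.1%) and 6 that fell (20.7%; median 0.00), beside 24.5% and 26.2%.

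Other p53 targets, chosen after their values were seen, fell into both kinds. The apoptosis genes Bbc3 (PUMA) and Pmaip1 (NOXA) rose by 0.77 and 0.55 in Sham against Mock and changed by -0.84 and -0.47 in Vanillin against Sham. A second, dim Bbc3 probe (9.54 in Mock) gave -0.14 and 0.01. The stress cytokine gene Gdf15 rose by 1.56 and fell by 1.01. In contrast, Perp, a desmosome gene of stratified epithelia, changed by -1.46 (means 53866, 19631 and 44066 in Mock, Sham and Vanillin), Eda2r, the receptor of an ectodysplasin, by -2.01, and Sfn (stratifin), a gene of keratinocytes, by -0.66. With vanillin these 3 rose by 1.17, 1.89 and 0.48 against Sham. The means of these 3 share the order of the squamous epithelium sums, but Vanillin against Mock was not called for Eda2r (-0.13) and Sfn (-0.19). So do the means of Sesn1 (4461, 1179 and 2289 in Mock, Sham and Vanillin) and Plk3 (4926, 1515 and 3243). Phlda3 (10001, 3749 and 4340) and the target gene Gadd45a (12312, 9868 and 10857) have this order too. The Gadd45a change in Vanillin against Sham was not called (0.14, adjusted p = 0.075). The part of that tissue was not tested for any of these genes.

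The relatives and regulators of p53 were led by its epithelial relatives. Trp63, which encodes the p53 relative of basal squamous cells and is one of the 15 squamous markers, changed by -6.49 in Sham against Mock (means 10026 and 96.1), and by -5.79 and -2.63 on its other probes. Trp73 changed by -3.07 (SE 0.14), and Ppp1r13l, which encodes the p53 inhibitor iASPP, by -1.81 (SE 0.083). The damage kinase gene Atm rose by 0.87 (SE 0.074, and 0.73 on its other probe). Of 19 measured genes in the list 9 rose (47.4%) and 5 fell (26.3%; median 0.07), beside 36.5% and 23.2% of all probes. The other genes that fell were Hipk2 (-0.85) and Chek1 (-0.29, a dim probe). In Vanillin against Sham 3 rose (15.8%, beside 15.7% of all probes), Trp63 (5.72), Trp73 (1.83) and Ppp1r13l (0.88). In that comparison 7 fell (36.8%, beside 32.2% of all probes; median -0.17), among them Atm (-0.60). Against Mock, Vanillin had 6 that rose and 6 that fell (31.6% each, median 0.01), beside 24.5% and 26.2% of all probes. Trp73 (means 492, 45.1 and 198 in Mock, Sham and Vanillin) and Ppp1r13l (1751, 488 and 909) had the order of the squamous epithelium sums. The part of that tissue in their values was not tested. With its Sham mean under 50, the size of the Trp73 changes may depend on the added constant.

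Cyclins and CDKs, the partners and targets of the inhibitors, were mostly higher in Sham. Of 16 measured genes 11 rose (68.8%), 1 fell (6.25%) and 4 were not called in Sham against Mock (median 0.58), beside 36.5% and 23.2% of all probes. The 4 with the smallest p were Ccna2 (1.82, SE 0.043), Ccnb2 (1.59, SE 0.054) and Ccne1 (1.37, SE 0.077), which encode cyclins A2, B2 and E1, and the phosphatase gene Cdc25c (1.27, SE 0.086). The gene that fell was Cdc25b (-0.46). Ccna2 is also 1 of the 13 markers of dividing cells, whose sums had the same order of groups, and their part in the list's changes was not tested. With vanillin 11 of 16 fell (68.8%) and 0 rose against Sham (median -0.25), beside 32.2% and 15.7% of all probes. At an unadjusted p under 0.05 limma likewise gave 0 of 16 that rose and 13 that fell. The changes were -0.59 for Ccnb2, -0.51 for Cdc25c, -0.42 for Ccne1 and -0.34 for Ccna2. These counts rest on the brightest probe of each gene, and other probes of the genes that fell went both ways. Ccnd3 (-0.22) gave 0.13 on its other probe, and Ccnh (-0.18) gave 0.16 and 0.08. Ccnd2 (-0.25) gave -0.23, and Cdk7 (-0.24) gave -0.32 and -0.16. Ccnd1, which encodes cyclin D1, the partner of the CDKs that INK4 proteins bind, was chosen after its values were seen and had means of 5167, 16443 and 9326 in Mock, Sham and Vanillin. In Vanillin against Mock 9 of 16 rose (56.2%) and 3 fell (18.8%; median 0.27), beside 24.5% and 26.2% of all probes. Those that fell were Cdc25b (-0.64), Ccnd3 (-0.32, but 0.02 on its other probe) and Cdk7 (-0.35, but 0.12 and 0.02 on its other probes).

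In the RB and E2F family, 10 of 14 measured genes rose (71.4%) and 1 fell (7.14%) in Sham against Mock (median 0.33), beside 36.5% and 23.2% of all probes. Lin9, a subunit of the DREAM and MuvB complexes, rose by 1.01 (SE 0.054, but 0.21 on its other probe), E2f7 by 1.16 (SE 0.09), E2f8 by 0.67 (SE 0.063) and E2f3 by 0.66 (SE 0.047). The gene that fell was Rb1 itself (-0.36, SE 0.077, adjusted p = 0.0031), with means of 2309, 1798 and 2170 in Mock, Sham and Vanillin. In Vanillin against Sham 6 fell (42.9%) and 1 rose (7.14%; median -0.11), beside 32.2% and 15.7% of all probes. The riser was Rb1 (0.27, SE 0.077, adjusted p = 0.02), and E2f7 fell by 0.58. E2f7 (means 426, 968 and 643 in Mock, Sham and Vanillin) had the order of the dividing cell sums. The part of dividing cells in this list's changes was not tested. Compared with Mock, 7 rose (50%) and 2 fell (14.3%) with vanillin (median 0.22), beside 24.5% and 26.2% of all probes, and those that fell were E2f4 (-0.37) and Rbl2 (-0.18).

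Genes for the breakdown of CDK inhibitor proteins rose in 7 of 10 measured (70%) and fell in 1 (10%) in Sham against Mock (median 0.34), beside 36.5% and 23.2% of all probes. Skp2, the F-box protein that marks p27 for breakdown, rose by 0.92 (SE 0.046, adjusted p = 1.7e-07), with means of 311, 604 and 402 in Mock, Sham and Vanillin. Cks2 rose by 1.30 (SE 0.054), Dtl, which directs the breakdown of p21, by 0.60 (SE 0.058), and the ligase subunit gene Rbx1 by 0.34 (SE 0.051). Fbxw7, whose product marks cyclin E, fell by 0.22. In Vanillin against Sham 5 fell (50%, beside 32.2% of all probes), Cks2 (-0.71), Skp2 (-0.57), Ddb1 (-0.30), Dtl (-0.22) and Rbx1 (-0.18), and Fbxw7 rose by 0.27 (10%, beside 15.7%), with a median of -0.13. Vanillin was higher than Mock for 5, Cks2 (0.58), Dtl (0.38), Skp2 (0.36), Skp1 (0.27) and Rbx1 (0.17), and lower for 0 of 10 (median 0.12), which is 50% and 0% beside 24.5% and 26.2% of all probes. At an unadjusted p under 0.05 limma also gave 0 that fell and 5 that rose. Skp2, Cks2 (means 457, 1145 and 694 in Mock, Sham and Vanillin) and Dtl (1287, 1963 and 1677) had the order of the dividing cell sums. The part of dividing cells in this list's changes was not tested. Arrays of RNA do not show whether any protein was broken down.

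Regulators of the locus of Cdkn2a and Cdkn2b changed in both directions. Polycomb proteins, among them BMI1 and EZH2, are known to repress the locus, TBX3 represses ARF, and ETS factors activate p16. Of 17 measured genes, 10 rose (58.8%) and 2 fell (11.8%) in Sham against Mock (median 0.27), beside 36.5% and 23.2% of all probes. Tbx3 rose by 1.67 (SE 0.073), Ets1 by 1.13 (SE 0.056), Ets2 by 1.11 (SE 0.073) and Bmi1 by 0.70 (SE 0.042), and the genes that fell were Jarid2 (-0.37) and the dim Tbx2 (-0.79). In Vanillin against Sham 2 rose (11.8%, beside 15.7% of all probes), Bmi1 (0.27, SE 0.042, adjusted p = 0.00082) and Jarid2 (0.20). Against Sham 5 fell (29.4%, beside 32.2%), which were the Polycomb genes Cbx2 (-0.47), Ring1 (-0.41) and Cbx8 (-0.30), Tbx3 (-0.32) and the demethylase gene Kdm6b (-0.24), with a median of -0.12. Against Mock, 10 rose (58.8%) and 5 fell (29.4%) with vanillin (median 0.27), beside 24.5% and 26.2% of all probes. Those that fell were Tbx2 (-0.78), Cbx2 (-0.60), Ring1 (-0.47), Cbx8 (-0.24) and Jarid2 (-0.17). The means of Bmi1 were 1647, 2693 and 3248 in Mock, Sham and Vanillin.

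**Figure D4:**
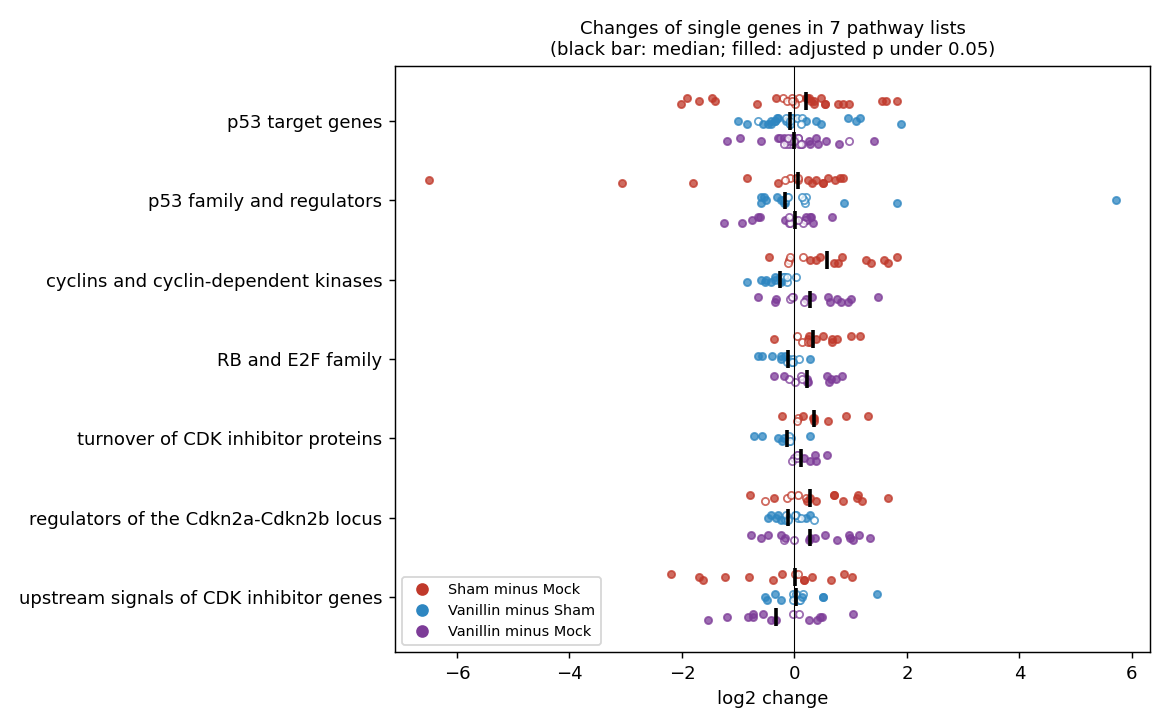
Change of each measured gene (points, 1 probe per gene, log2 scale on the x axis) of 7 pathway lists in the 3 comparisons; black bars are list medians and filled points have an adjusted p under 0.05. Cyclins and CDKs have a median of 0.58 for Sham against Mock and -0.25 for Vanillin against Sham, and the farthest points are Trp63 at -6.49 and 5.72.

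Genes whose values ran most like those of 2 members were named by Pearson's correlation over the 9 arrays, which fall into 3 groups, so that r mostly reflects the order and spacing of the group means. For Cdkn2a (brighter probe) these were Scml4, a Polycomb-related gene (r = 0.9985, means 352, 1072 and 501 in Mock, Sham and Vanillin), Prr11 (r = 0.9976, means 146, 317 and 188) and Gfer (r = 0.9965, means 1823, 3245 and 2108). For Cdkn1a they were Akap8l (r = 0.9841, means 1245, 966 and 969), Srr (r = 0.9841, means 2123, 1489 and 1376) and Mapk6 (r = 0.9801, means 3929, 3239 and 3227). In all, 71 named genes correlated with Cdkn2a above 0.99 and 0 with Cdkn1a.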

How the data were processed

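The authors deposited 1 table of probe intensity values on a linear scale for 9 Cy5-labelled arrays. The submitters' processing notes list limma without a role or version. For scanner, background method and probe filter, the entry is "not given in the sources used here". The values show background subtraction (3 to 14 per array below 0) and normalization between arrays (sorted log2 values differ by at most 0.109). No further normalization was made, since array quartiles differed by at most 0.0128 on the log2 scale. Negative values were set to 0 and log2(value + 16) was fitted with 3 group means over all 9 arrays (limma 3.58.1, R 4.3.3, lmFit and eBayes, two-sided, 6 residual and 2.69 prior degrees of freedom). Adjustment ran over 26423 probes in each of 3 comparisons.

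Platform symbols, which name 20377 probes, were matched without regard to case and updated through RefSeq synonyms (2126 probes) and, in lists, each gene was read from its brightest probe. From each list the 4 genes with the smallest p are named, with genes that are 5 or fewer in their direction. Members and lists were chosen with earlier results of these data known. Same-numbered Sham and Vanillin arrays deviated together (correlations 0.13 to 0.2), but Mock arrays did not (-0.29 to -0.016). Figures were drawn with matplotlib 3.10.9.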

Additional observations from a re-analysis of the deposited data

How the results depend on the processing

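The 3 counts of called probes, over all probes and over the 9 members, stayed within 1.5 times their value under 18 alternatives: a constant of 1 or 64, no dim probes, repeated quantile normalization, array weights, an intensity trend, only the arrays compared, a replicate block, each array left out, and, chosen after seeing the data, the block with only the Sham and Vanillin arrays. Members called ranged from 6 to 7 in Sham against Mock, were 6 in Vanillin against Sham and ranged from 8 to 9 in Vanillin against Mock. Over all probes, leaving out 1 array gave 14265 to 16222, 10802 to 12752 and 11679 to 13648 calls. With the replicate block 15498, 12269 and 13021 probes were called (11587 in Vanillin against Sham with only those arrays), and the block changed no call of a member.

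Changes reversed in sign only where they were not called. With 1 array left out, Cdkn1b in Sham against Mock ranged from -0.080 to 0.035, Cdkn1a in Vanillin against Sham from -0.056 to 0.018 (and 0.002 with array weights), and Cdkn1c there from -0.016 to 0.122. The causes were not tested. Mdm2 in Sham against Mock was called with a constant of 64 (adjusted p = 0.043), with array weights (0.024), with only the arrays compared (0.038), with the trend (0.043) and without Vanillin replicate 1 (0.039) or 2 (0.049). Probes under an intensity of 50 (19.9% to 20.1% per array) depend most on the constant.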

Other observations

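Signals known to act on CDK inhibitor genes moved both ways. Of 15 measured genes for TGF-β signals, FOXO and KLF factors, C/EBPα and Zbtb17 (MIZ1), 6 rose and 7 fell in Sham against Mock (median 0.01), beside 36.5% and 23.2% of all probes. Cebpa, a factor of fat and epithelial differentiation, fell by 2.19 (SE 0.046, adjusted p = 3.8e-10) and rose by 1.46 in Vanillin against Sham, with means of 8495, 1843 and 5105 in Mock, Sham and Vanillin. The adipocyte marker sums had the same order (145906 to 146803, 31511 to 32928 and 123805 to 126857), and their part was not tested. The ligand genes Tgfb2 and Tgfb3 changed by -1.70 (SE 0.052) and -1.63 (SE 0.1), although the other Tgfb2 probe gave 0.00. Smad3, which carries the TGF-β signal to the nucleus, rose by 1.02 (SE 0.05) and fell by 0.53 with vanillin. The other risers in Vanillin against Sham were Tgfb2 (0.50, but -0.03 on its other probe), Klf4 (0.51) and Tgfbr2 (0.14). The other genes that fell were Foxo3 (-0.49), Foxo4 (-0.34) and Smad4 (-0.24). In that comparison 4 of 15 rose and 4 fell (26.7% each), beside 15.7% and 32.2% of all probes. In Vanillin against Mock 5 of 15 rose (33.3%) and 8 fell (53.3%; median -0.32), beside 24.5% and 26.2% of all probes. Those that rose were Tgfbr1 (1.04), Smad3 (0.49), Tgfbr2 (0.45), Smad4 (0.40) and Klf6 (0.26).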
